A study of Mus musculus with 8 samples.

Results

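The genes described here are the splicing factors and heterogeneous nuclear ribonucleoproteins (hnRNPs) of the mouse liver. They were chosen by name: protein-coding genes of the deposited FPKM table whose symbol begins with Srsf and a digit, Snrp, Sf3a or Sf3b, Hnrnp, Prpf, Lsm and a digit, or U2af. The rule found 81 of 54532 listed genes, in 7 classes: 11 SR proteins, 12 Sm and U1/U2 snRNP proteins, 9 SF3A and SF3B subunits, 20 hnRNPs, 13 PRPF factors, 13 LSM proteins and 3 U2AF subunits. The rule used no measured value, although the group was proposed with earlier results of these data known.

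RNA sequencing was performed on whole livers of 4 METTL3-HKD and 4 METTL3-Flox mice after 1 h of partial warm ischemia and 6 h of reperfusion. All 8 mice carried floxed METTL3, the writer enzyme of N6-methyladenosine (m6A) in mRNA, with exon 4 between the loxP sites. METTL3-HKD mice were METTL3 flox/- with Alb-iCre, a Cre recombinase driven by the albumin promoter and therefore aimed at hepatocytes, and are a heterozygous knockdown rather than a knockout. METTL3-Flox controls were METTL3 flox/flox from shared litters. No group without ischemia was sequenced in the samples used here, and the ages of these mice are not given in the sources used here. Each library held 15861245 to 18434488 reads on genes. The labelled tissue was checked against hepatocyte markers, which summed to 27200 to 41700 FPKM in every liver. Mettl3 itself was listed at 1.56, 1.39, 1.17 and 1.2 FPKM in the METTL3-HKD livers, numbered 1 to 4, and at 1.84, 1.16, 1.45 and 1.54 FPKM in METTL3-Flox livers 1 to 4. The groups overlapped, and the log2 fold change was -0.16 (limma, adjusted p = 0.556), and since a whole-gene value also counts exons outside the deleted exon 4 and cells without Cre, it does not check the labels.

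Splicing removes introns from pre-mRNA in the spliceosome, which is built from small nuclear RNAs packed in proteins. The Sm proteins form a ring around most spliceosomal RNAs, the LSM ring does so for U6, and SF3A, SF3B and U2AF place the U2 particle at the branch site and the end of the intron. PRPF proteins act in the tri-snRNP and in activation of the spliceosome. SR proteins bind exons and mostly favour their inclusion, while hnRNPs coat pre-mRNA and often oppose it. Many SR and hnRNP genes limit their own level by splicing their transcripts into forms that nonsense-mediated decay removes, and m6A is read by some of these proteins or by partners of theirs, as is known for Hnrnpa2b1, Hnrnpc, Srsf3 and Srsf10.

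To show what the control regions of members that differed look like, the bases before the RefSeq start site (GRCm38.p6) are printed for 3 SR genes that were higher in METTL3-HKD livers and for Lsm10, the gene that was lower. The windows are chr17:29032569-29032627 (Srsf3, plus strand), chr17:80207308-80207459 (Srsf7, minus strand), chr11:116853095-116853294 (Srsf2, minus strand) and chr4:126096403-126096622 (Lsm10, plus strand). They run 5′ to 3′ toward the gene, they leave out bases annotated as exon, and capitals mark a match to a searched motif on either strand.
Srsf3: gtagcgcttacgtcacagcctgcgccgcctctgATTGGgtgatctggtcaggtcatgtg
Srsf7: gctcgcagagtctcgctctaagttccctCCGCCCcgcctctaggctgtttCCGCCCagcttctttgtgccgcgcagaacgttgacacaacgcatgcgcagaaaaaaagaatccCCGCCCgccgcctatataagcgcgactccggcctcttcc
Srsf2: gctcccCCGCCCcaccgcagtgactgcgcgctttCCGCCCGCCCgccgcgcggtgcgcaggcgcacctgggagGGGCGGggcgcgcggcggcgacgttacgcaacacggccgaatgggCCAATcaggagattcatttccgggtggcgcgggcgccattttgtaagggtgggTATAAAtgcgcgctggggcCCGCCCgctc
Lsm10: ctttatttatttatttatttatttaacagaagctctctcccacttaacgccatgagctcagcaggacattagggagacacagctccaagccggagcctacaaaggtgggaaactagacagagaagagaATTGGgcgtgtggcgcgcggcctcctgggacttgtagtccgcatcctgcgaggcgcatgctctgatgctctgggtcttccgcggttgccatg
The capitals in Srsf7 are matches to the SP1 motif GGGCGG, those in Srsf3 and Lsm10 are matches to the CCAAT box, and Srsf2 holds SP1 matches that partly overlap each other, a CCAAT box and a TATA box. Over the whole 250 bases before the start site, 69 of the 81 members had a RefSeq window, and they were set beside 10260 windows of tested protein-coding genes. SP1 letters were found in 65.2% of members and 57.0% of all windows, with 10 of 11 SR genes holding them and Srsf3 as the exception. CCAAT was found in 46.4% of members and 36.4% of all windows, and the ETS letters CCGGAAG in 26.1% and 13.3%. The remaining motifs were near the level of all windows: TATAAA in 7.25% against 7.11%, the E-box CACGTG in 7.25% against 8.32%, the AP-1 letters TGANTCA in 4.35% against 4.89%, and the CRE letters TGACGTCA in 2.9% against 2.58%. The NRF1 motif was in 0 member windows and 1.59% of all windows. These shares describe letters in a window, and their differences were not tested.

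Of the 81 genes, 79 had a mean of at least 0.1 FPKM and were tested. In METTL3-HKD livers 11 of the 79 were higher and 1 was lower at an adjusted p under 0.05, which is 13.9% and 1.27% of those tested. Over all 16645 tested genes, 9.05% were higher and 6.63% lower. None of the 79 also passed a log2 fold change of 1, whereas 4.7% of all genes were higher and 1.52% lower past both thresholds. The shift was small and broad: 65 of 79 fitted changes were above 0, or 82.3%, against 49.7% of all genes, and the median log2 fold change was 0.17 against -0.00. Every METTL3-HKD liver was above every METTL3-Flox liver for 19 members, or 24.1%, against 12.7% of all genes. The opposite separation held for 1 member, or 1.27%, against 9.95%. The members are expressed above the average gene, with a median of 8.06 FPKM against 2.23 FPKM, and in the fit of genes of at least 1 FPKM 15 of 78 members, or 19.2%, were higher and 1 was lower, against 11.7% and 10.8% of all genes.

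The count of 11 depended on which liver was left out. It was 4 without METTL3-HKD liver 1 or METTL3-Flox liver 3, 5 without METTL3-HKD liver 2 or METTL3-Flox liver 2, 6 without METTL3-Flox liver 4, 7 without METTL3-HKD liver 4, and 13 without METTL3-HKD liver 3 or METTL3-Flox liver 1. In the omissions that lowered the count, the share of all genes called higher was lower too. Members and all genes were at 5.06% and 4.62% without METTL3-HKD liver 1, 6.33% and 5.06% without METTL3-HKD liver 2, 5.06% and 4.43% without METTL3-Flox liver 3, and 6.33% and 5.34% without METTL3-Flox liver 2, so the members were then near the background. They were at 16.5% and 9.93% when METTL3-HKD liver 3 was left out, 16.5% and 8.42% without METTL3-Flox liver 1, 7.59% and 5.27% without METTL3-Flox liver 4, and 8.86% and 6.39% when METTL3-HKD liver 4 was left out. Over all 8 omissions the median log2 fold change of the members was 0.12 to 0.22 above that of all genes. In whole liver RNA, a change in the cells present and a change in RNA per cell cannot be told apart.

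**Figure D1:**
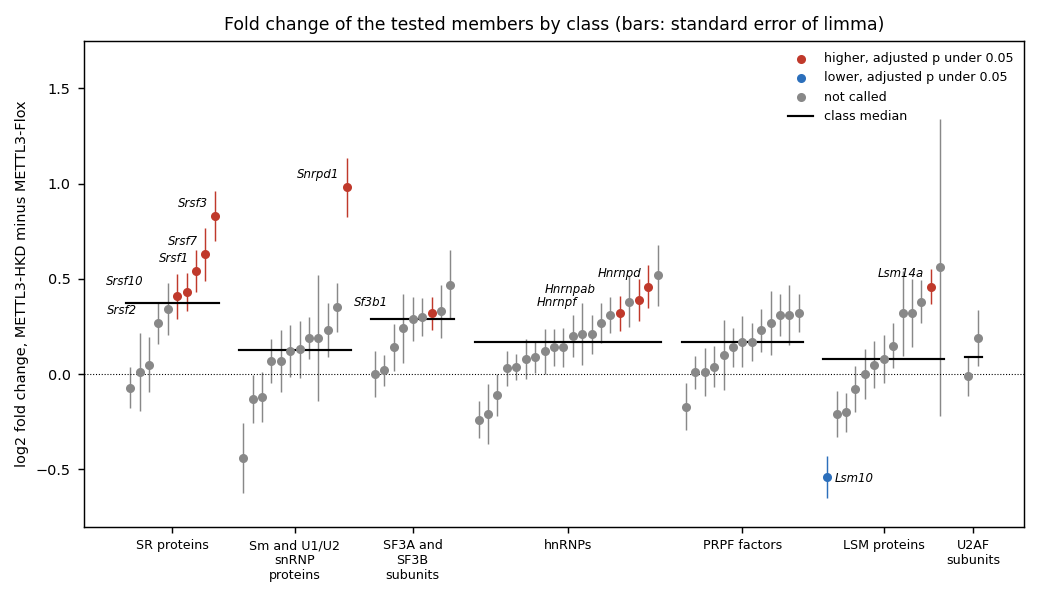
Log2 fold change (METTL3-HKD minus METTL3-Flox, vertical axis) of the 79 tested members by class, with bars for the standard error of limma and a horizontal line for each class median. Red points are the 11 higher members, the blue point is Lsm10, and the SR proteins have the highest class median at 0.38.

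SR proteins had 5 of 10 tested members higher and none lower, against 9.05% and 6.63% of all genes. Their median log2 fold change was 0.38. Srsf3, which binds exons and also works in mRNA export, was at 14.7, 12.7, 10.1 and 11.0 FPKM in the METTL3-HKD livers and at 7.19, 6.22, 6.23 and 7.37 FPKM in the METTL3-Flox livers. The groups were well apart, at 12.2 ± 2.01 and 6.75 ± 0.613 FPKM (SD, n = 4). The log2 fold change was 0.83 with a standard error of 0.129 (limma, adjusted p = 0.00707), and the call was kept under all 17 alternatives.

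Srsf7, a close relative of Srsf3 that likewise links splicing to export, was at 19.6, 15.5, 15 and 15 FPKM in METTL3-HKD livers and at 12.6, 9.72, 8.66 and 11.0 FPKM in METTL3-Flox livers. METTL3-HKD liver 1 was far above the other METTL3-HKD livers, and the lowest METTL3-HKD value still exceeded the highest METTL3-Flox value. The log2 fold change was 0.63 ± 0.139 (SE, adjusted p = 0.0201), and without METTL3-HKD liver 1 it was 0.54 with an adjusted p of 0.0513. Leaving out METTL3-Flox liver 2 or 3 gave adjusted p values of 0.0559 and 0.0576.

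Srsf1, the founding SR protein and a shuttling splicing activator, was at 20.1, 17.1, 17.2 and 18.3 FPKM in METTL3-HKD livers and at 14.1, 11.4, 10.8 and 13.8 FPKM in METTL3-Flox livers. The 4 METTL3-HKD values were close together and lay above all METTL3-Flox values. Its log2 fold change was 0.54 ± 0.111 (SE, adjusted p = 0.0162), and this call was also kept under all 17 alternatives.

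Srsf10, which acts as a splicing repressor when dephosphorylated, was at 7.47, 6.61, 6.08 and 6.42 FPKM against 5.43, 4.65, 4.92 and 4.65 FPKM, with a log2 fold change of 0.43 ± 0.099 (SE, adjusted p = 0.0239). Srsf2, a nuclear SR protein that marks splicing speckles and had the highest mean FPKM of the class, was at 25.5, 23.7, 18.9 and 22.2 FPKM against 18.3, 16.5, 14.6 and 18.3 FPKM, with a log2 fold change of 0.41 ± 0.118 (SE, adjusted p = 0.0458). Neither gene's groups overlapped, but each call was lost on omission of any of several livers. Srsf10 passed without METTL3-HKD liver 3 or 4 or METTL3-Flox liver 1 and missed the threshold on each other omission, with adjusted p values up to 0.0619. Of these omissions, Srsf2 passed only without METTL3-HKD liver 3, and reached 0.115 without METTL3-HKD liver 1. Exons of Mettl23 and Mfsd11 on the opposite strand cover 15.6% and 9.74% of the Srsf2 exon bases, and their means were 5.97 and 2.04 FPKM.

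The other SR proteins did not pass the test. Srsf6 was separated between the groups, at 16.4 to 20.5 against 12.6 to 15.9 FPKM, and the log2 fold change was 0.27 (adjusted p = 0.127), and Srsf11 overlapped at 0.34 (adjusted p = 0.123). Srsf5 was the least steady, at 13.8 to 22.9 FPKM in METTL3-HKD and 14.2 to 24.3 FPKM in METTL3-Flox livers, and its log2 fold change was 0.01 with a 95% interval of -0.45 to 0.48. The log2 fold changes of Srsf9 and Srsf4 were 0.05 and -0.07. Srsf12 was listed at 0 to 0.0395 FPKM, with 0 to 2 reads per liver, and was not tested. Summed over the tested SR genes, FPKM was 167, 145, 123 and 133 in METTL3-HKD livers and 119, 105, 111 and 114 in METTL3-Flox livers, so the ranges of the sums did not meet. The count of 5 was 2 without METTL3-HKD liver 1 or METTL3-Flox liver 2 or 3, 3 without METTL3-HKD liver 2 or METTL3-Flox liver 4, and 6 without METTL3-HKD liver 3.

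**Figure D2:**
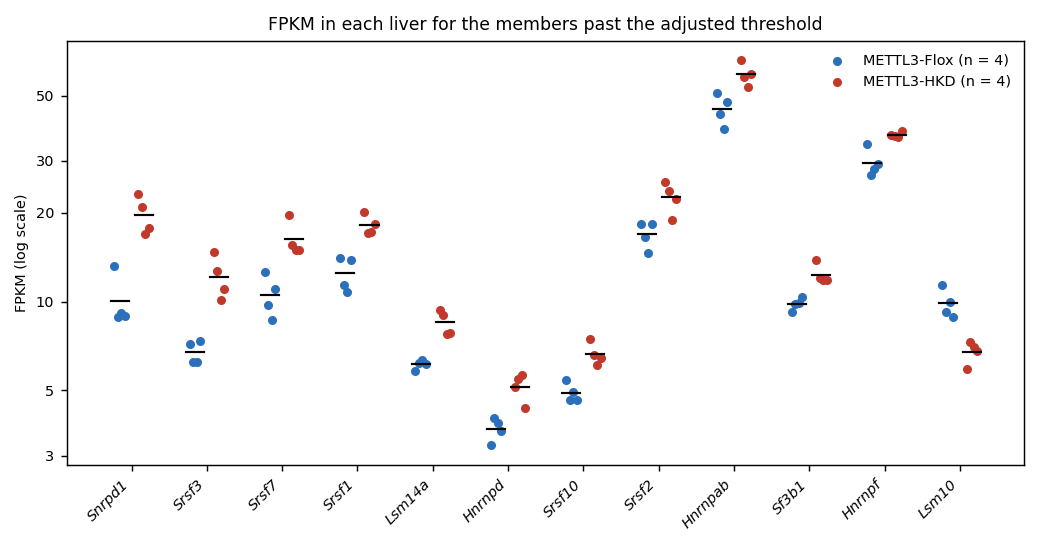
FPKM (log scale) in each liver for the 12 members past the adjusted threshold, ordered by log2 fold change. Points are single livers, blue for METTL3-Flox and red for METTL3-HKD, and black lines are means of 4 livers. The colours do not overlap for any of the 12 genes.

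Among the Sm and U1/U2 snRNP proteins, 1 of 12 was higher (8.33%, against 9.05% of all genes) and the class median was 0.13. Snrpd1, the Sm protein D1 of the ring on spliceosomal RNAs, was at 23.1, 20.9, 17.0 and 17.8 FPKM in METTL3-HKD livers and at 13.2, 8.87, 9.12 and 8.91 FPKM in METTL3-Flox livers. Within METTL3-Flox, liver 1 stood above the other livers, which lay close together. Its log2 fold change of 0.98 ± 0.156 (SE, adjusted p = 0.00739) was the largest among the 79 tested members and was kept under all 17 alternatives, from 116 to 389 reads per liver. A processed pseudogene, Gm14277, shares 13.8% of the 50-base words of the first-numbered coding transcript of Snrpd1 and was at a mean of 0.296 FPKM.

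The partners of Snrpd1 in the Sm ring did not pass the test. Snrpb, the most abundant of them, was at 30.7, 33.8, 24.3 and 26.1 FPKM against 26.4, 20.1, 23.1 and 28.2 FPKM, and the log2 fold change was 0.23 (adjusted p = 0.290). Snrpd2 and Snrpd3 were at -0.12 and -0.13, Snrpe at 0.19, Snrpf at 0.07 and Snrpg at 0.13, each with overlapping groups. Snrpe varied most, from 5.02 to 10.1 FPKM in METTL3-HKD and 3.74 to 10.9 FPKM in METTL3-Flox livers. Snrpn, an imprinted gene for an Sm protein best known in neurons, was lowest of the class at -0.44 (adjusted p = 0.137). The U1 and U2 proteins Snrpa, Snrpc, Snrpa1 and Snrpb2 ranged from 0.07 to 0.35.

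SF3A and SF3B subunits had 1 of 9 members higher (11.1%, against 9.05% of all genes), a median of 0.29, and no fitted value below 0. Sf3b1, the scaffold of SF3B that clamps the branch site, was at 13.8, 12, 11.8 and 11.8 FPKM against 9.23, 9.83, 9.90 and 10.4 FPKM. METTL3-HKD liver 1 was apart from the other METTL3-HKD livers, and the groups did not overlap. The log2 fold change was 0.32 ± 0.086 (SE, adjusted p = 0.0384), and the call was lost on 7 of the 8 omissions of a liver, METTL3-HKD liver 3 being the exception. Sf3b4 and Sf3b3 were separated without passing, at 0.47 (adjusted p = 0.109) and 0.30 (adjusted p = 0.0725). The 3 SF3A subunits were at 0.24 to 0.33, Sf3b6 at 0.14 and Sf3b5 at 0.00. Sf3b2, the most abundant subunit, was at 31.2, 31.4, 31.8 and 31.2 FPKM against 29.7, 28.5, 32.7 and 33.3 FPKM, and its log2 fold change of 0.02 had a 95% interval of -0.16 to 0.20.

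Of the 20 hnRNPs, 3 were higher and none lower, against 9.05% and 6.63% of all genes, and the class median was 0.17. The difference in these shares was not tested. Hnrnpd (AUF1), which binds AU-rich elements and affects mRNA decay, was at 5.13, 5.44, 5.62 and 4.37 FPKM against 3.25, 4.03, 3.86 and 3.63 FPKM. The METTL3-HKD liver 4 value was nearest to the METTL3-Flox range. Its log2 fold change was 0.46 ± 0.114 (SE, adjusted p = 0.029), and the call was lost without METTL3-HKD liver 1, 2 or 3 or METTL3-Flox liver 3 or 4.

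Hnrnpab, an abundant RNA-binding protein related to Hnrnpd, was at 66.0, 57.7, 53.4 and 59.1 FPKM against 51.1, 43.3, 38.4 and 47.6 FPKM. Hnrnpf, which binds G-rich sequence, was at 36.6, 36.5, 36.3 and 37.8 FPKM against 34.2, 26.8, 28.2 and 29.3 FPKM. Both genes were separated between the groups, although METTL3-Flox liver 1 came close to the METTL3-HKD values in Hnrnpf. Their log2 fold changes were 0.39 ± 0.112 (SE, adjusted p = 0.0454) and 0.32 ± 0.091 (SE, adjusted p = 0.0469). On omission of a liver, the Hnrnpab call was kept only without METTL3-HKD liver 3 or METTL3-Flox liver 1, and the Hnrnpf call only without METTL3-Flox liver 1. Exons of Phykpl on the opposite strand cover 29.1% of Hnrnpab, and Phykpl was at a mean of 1.34 FPKM. Of the 50-base words of Hnrnpf, 66.8% occur in other genes. The pseudogene Gm6430 shares the most, 40.3%, and was at a mean of 0.154 FPKM. Both values carry that uncertainty.

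Several hnRNPs lay just outside the threshold. Hnrnph2 was at 14.0 to 16.3 against 11.0 to 13.3 FPKM, and the log2 fold change was 0.31 (adjusted p = 0.0531), and Hnrnpdl was at 0.52 (adjusted p = 0.0577) with overlapping groups. Hnrnpa0 was at 0.38 (adjusted p = 0.0873). Of the hnRNPs linked to m6A, Hnrnpc was at 24.7, 22.6, 21.4 and 21.3 FPKM against 20.7, 15.7, 18.6 and 19.9 FPKM, which is a log2 fold change of 0.27 (adjusted p = 0.117) with separated groups. Hnrnpa2b1 was at 50, 49, 49.1 and 46 FPKM against 49.5, 41.7, 43.7 and 47.5 FPKM, and its log2 fold change of 0.09 had a 95% interval of -0.10 to 0.28. The abundant Hnrnpk was among the steadiest members, at 34.2 to 35.5 against 32.9 to 34.6 FPKM. Hnrnpl, a splicing regulator that binds CA repeats, was the lowest of the class at 14.7, 13.7, 17.5 and 15.5 FPKM against 16.9, 17.3, 18.6 and 19.5 FPKM, and the log2 fold change was -0.24 (adjusted p = 0.127). The remaining 10 hnRNPs had fitted values from -0.21 (Hnrnph3) to 0.21 (Hnrnpa1 and Hnrnpa3), all with overlapping groups.

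None of the 13 PRPF factors passed the adjusted threshold in limma, on the deposited values or with voom. At an unadjusted p under 0.05, 2 were higher and none lower, against 16.7% and 15.1% of all genes. The class median was 0.17. Prpf4, of the tri-snRNP, was at 2.44 to 2.9 against 1.87 to 2.30 FPKM, and its log2 fold change was 0.31 (adjusted p = 0.0918) with separated groups. Prpf8, the scaffold of the catalytic centre and the most abundant member of the class, was at 22.1, 23.8, 23.1 and 20.7 FPKM against 17.1, 23.3, 24.5 and 24.6 FPKM. METTL3-Flox liver 1 was low for this gene, and the log2 fold change was 0.01 with a 95% interval of -0.27 to 0.30. Only Prpf40b, at -0.17, had a fitted value below 0, and Prpf6 and Prpf3 were at 0.01 and 0.31.

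The LSM proteins held 1 higher and 1 lower member of 13 (7.69% each, against 9.05% and 6.63% of all genes), and their median was 0.08. Lsm14a, a processing-body protein of translational repression rather than a spliceosomal one, was at 9.33, 8.99, 7.79 and 7.85 FPKM against 5.83, 6.18, 6.35 and 6.15 FPKM. The METTL3-Flox livers were tightly grouped at 6.13 ± 0.218 FPKM (SD, n = 4), below 8.49 ± 0.788 FPKM (SD, n = 4) in METTL3-HKD livers. Its log2 fold change was 0.46 ± 0.092 (SE, adjusted p = 0.0147), and the call was kept on each omission of a liver. Its paralog Lsm14b was at -0.08 (adjusted p = 0.686).

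Lsm10, part of the U7 particle that trims histone mRNAs, was the only member that fell. It was at 5.90, 7.29, 6.99 and 6.79 FPKM in METTL3-HKD livers and at 11.4, 9.25, 9.97 and 8.89 FPKM in METTL3-Flox livers. METTL3-HKD liver 1 was the lowest and METTL3-Flox liver 1 the highest, and the groups did not overlap. The log2 fold change was -0.54 ± 0.109 (SE, adjusted p = 0.0149) and kept its call on each omission of a liver, from 112 to 153 reads per liver. With libraries scaled to reads on genes it was -0.33 with an adjusted p of 0.0624. Its U7 partner Lsm11 was at 0.32 (adjusted p = 0.363).

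The LSM ring of U6 and of cytoplasmic decay showed no common direction. Lsm8, the subunit particular to the U6 ring, was separated at 1.98 to 2.46 against 1.52 to 1.68 FPKM, and the log2 fold change was 0.38 (adjusted p = 0.0510). Lsm1, its counterpart in the decay ring, was at 3.84 to 4.55 against 4.10 to 5.82 FPKM and -0.21 (adjusted p = 0.266). Of the shared subunits, Lsm4 was at 24.8, 23.6, 24.5 and 28.1 FPKM against 31.0, 20.6, 23.6 and 26.9 FPKM and -0.00, Lsm2 at 0.05, Lsm3 at 0.32, Lsm6 at -0.20 and Lsm7 at 0.08. Lsm5 was too variable to place, from 0.391 to 5.16 FPKM on 5 to 76 reads, with a 95% interval of -1.20 to 2.32. It shares 39.3% of the 50-base words of its first-numbered coding transcript with the processed pseudogene Gm7846, which was at a mean of 6.53 FPKM. Lsm12 was at 0.15.

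Of the U2AF subunits, which recognise the end of the intron, U2af1 was at 33.9, 34.6, 32.5 and 35.7 FPKM against 37.2, 22.2, 29.0 and 33.0 FPKM. METTL3-Flox liver 2 was low, and the log2 fold change was 0.19 (adjusted p = 0.401). U2af2 was at 12.6 to 13.8 against 10.9 to 15.1 FPKM and -0.01. U2af1l4 was listed at 0.06 FPKM, on 2 reads, in METTL3-HKD liver 1 and at 0 in the other livers, and was not tested.

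For each of the 12 called genes, an exact two-sided permutation test over the 70 arrangements of the livers gave p = 0.0286, the smallest it can give. Every gene whose groups do not overlap gives this value, so the test restates that separation and adds no support to the calls. Over all tested genes, 12.7% were separated as higher and 9.95% as lower.

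**Figure D3:**
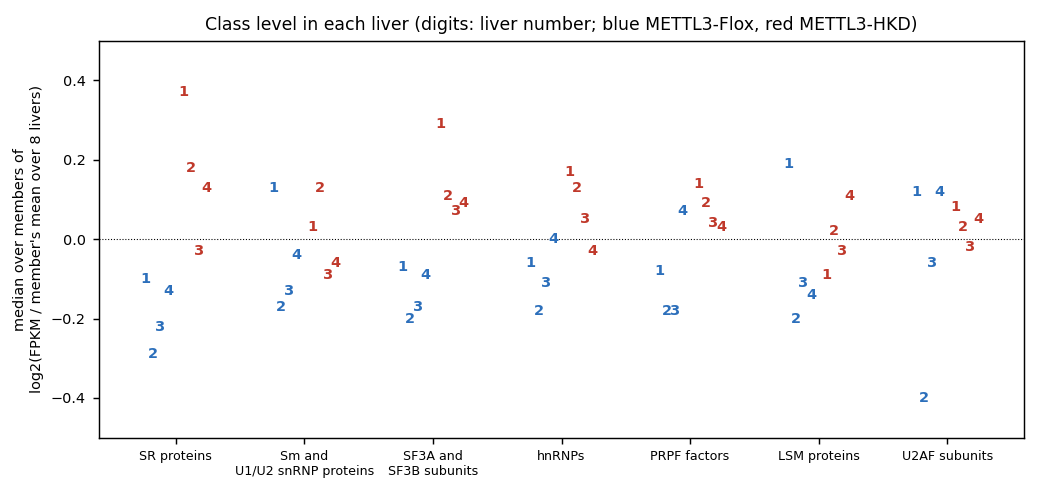
Median over the tested members of each class of the log2 ratio of FPKM to the member's own mean over 8 livers, with 1 digit per liver (blue METTL3-Flox, red METTL3-HKD). For SR proteins the METTL3-HKD livers lie at -0.03 to 0.37 and the METTL3-Flox livers at -0.29 to -0.10, while the LSM proteins overlap.

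By liver, the SR median relative to each gene's own mean was 0.37, 0.18, -0.03 and 0.13 in METTL3-HKD livers 1 to 4 and -0.10, -0.29, -0.22 and -0.13 in METTL3-Flox livers 1 to 4. METTL3-HKD liver 1 was the highest and METTL3-HKD liver 3 was the nearest to the controls. SF3A and SF3B subunits were also separated, at 0.07 to 0.29 against -0.20 to -0.07. In the hnRNPs METTL3-Flox liver 4 reached 0.00 and METTL3-HKD liver 4 was at -0.03, so the groups met. The Sm, PRPF, LSM and U2AF classes overlapped too.

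The scaling between libraries mattered for the counts. The deposited FPKM had been scaled by the authors with factors of 1.00 to 1.16 relative to the reads on genes in METTL3-HKD and 0.835 to 1.00 in METTL3-Flox livers. With each library scaled to its reads on genes, the median of all genes moved to 0.19 and that of the members to 0.38, a difference of 0.19. On that scale 22 members, or 27.8%, were higher and 0 lower, against 13.8% and 2.24% of all genes, and the split over all genes changed from 1506 higher and 1104 lower to 2304 and 373. The 22 included all 11 members called with the deposited values. They were 5 SR proteins, 2 Sm and U1/U2 proteins, 4 SF3A and SF3B subunits, 7 hnRNPs, 1 PRPF factor and 3 LSM proteins. Relative to the shifted median of all genes, the class medians were 0.40 for SR proteins, 0.31 for SF3A and SF3B, 0.19 for hnRNPs, 0.18 for PRPF, 0.14 for Sm and U1/U2, 0.11 for U2AF and 0.10 for LSM. The members together took 0.413% to 0.529% of the reads on genes in METTL3-HKD and 0.323% to 0.401% in METTL3-Flox livers.

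**Figure D4:**
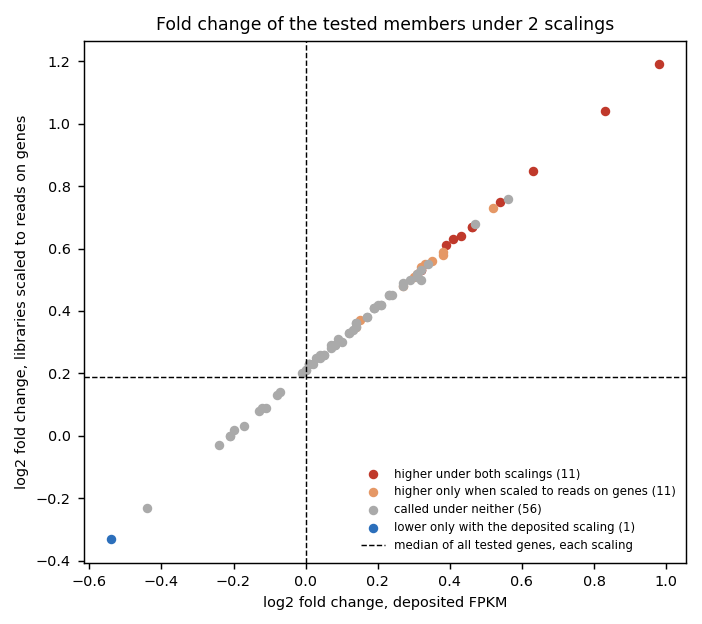
Log2 fold change of the 79 tested members with the deposited FPKM (horizontal axis) and with libraries scaled to reads on genes (vertical axis), with dashed lines at the median of all genes under each scaling. The 11 red genes are higher under both scalings, the 11 orange genes only with reads on genes, and Lsm10 (blue) is called lower only with the deposited values.

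Genes of the splicing machinery outside the name rule were read from 5 lists. By list, 3.45% to 12.5% of tested genes were higher, against 9.05% of all tested genes. The share that was lower was 0% to 5.26%, against 6.63%. The counts of higher genes in these lists are therefore near the background. Among 30 tested snRNP and tri-snRNP proteins, 2 were higher and none lower, with a median of 0.12. Snu13, which binds U4 RNA and also box C/D RNAs, was at 17.8, 15.8, 14.5 and 15.5 FPKM against 11.1, 9.25, 9.11 and 10.8 FPKM, a log2 fold change of 0.66 ± 0.103 (SE, adjusted p = 0.0071). The second was Rbm17 at 0.35 (adjusted p = 0.0303). Of the factors of the Prp19 complex and the catalytic steps, 4 of 32 were higher and none lower, 30 of 32 fitted values were above 0, and the median was 0.20. Dhx8, the helicase that releases the spliced mRNA, was at 13.2, 15.3, 5.49 and 9.31 FPKM against 4.24, 3.30, 3.62 and 3.73 FPKM. It was the only gene of these lists past a log2 fold change of 1, at 1.42 ± 0.281 (SE, adjusted p = 0.0143). Tfip11, Cwc25 and Dhx15 were at 0.40, 0.65 and 0.37, with adjusted p values of 0.025, 0.0293 and 0.0461.

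In the SMN complex and snRNP assembly, 2 of 16 were higher. These were Wdr77 at 0.75 (adjusted p = 0.0104) and Prmt5 at 0.32 (adjusted p = 0.038), partners in the methylosome that methylates Sm proteins, Snrpd1 among them. The SR kinases and SR-related proteins had 1 of 29 higher, Scaf8 at 0.37 (adjusted p = 0.037), and 1 lower, Rsrp1 at -0.61 (adjusted p = 0.0113). Neither the Clk nor the Srpk kinases of SR proteins passed. Of 38 other hnRNP-like and tissue regulators, 4 were higher and 2 lower. Syncrip, also known as hnRNP Q, was at 0.54 (adjusted p = 0.00853), Ptbp2 at 0.84 (adjusted p = 0.019), Fubp1 at 0.64 (adjusted p = 0.0294) and Pspc1 at 0.78 (adjusted p = 0.0303). Those that fell were Pcbp4 at -0.76 (adjusted p = 0.00465) and Cirbp, a cold-inducible RNA-binding protein, at -0.56 (adjusted p = 0.0187).

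**Figure D5:**
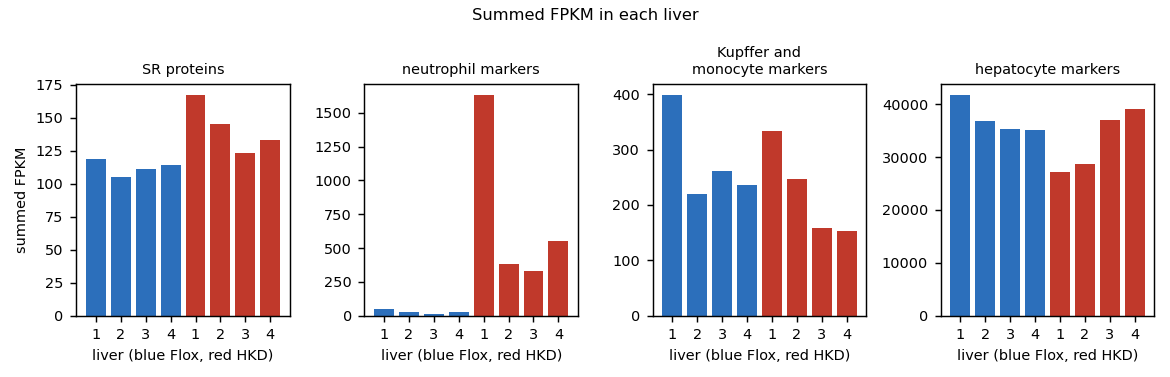
Summed FPKM in each liver (blue METTL3-Flox, red METTL3-HKD) of the tested SR proteins and of neutrophil, Kupffer cell and monocyte, and hepatocyte markers, each on its own axis from 0. METTL3-HKD liver 1 has the highest SR sum (167) and the highest neutrophil sum (1630). In METTL3-HKD livers 2, 3 and 4 the SR sums are 145, 123 and 133 and the neutrophil sums 383, 333 and 549.

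The marker sums of neutrophils and cholangiocytes were separated between the groups, while those of the other lists overlapped. Of the neutrophil markers, 8 of 9 tested were higher, and their summed level was 333 to 1630 FPKM in METTL3-HKD against 13.2 to 45.2 FPKM in METTL3-Flox livers, with METTL3-HKD liver 1 at 1630. Of the cholangiocyte markers, 4 of 5 tested were higher (119 to 369 against 52.5 to 77.6 FPKM). In this list 1 gene averaged 134 FPKM, against a median of 1.53 FPKM over its tested genes, so the sum mostly follows that gene. Of the 10 Kupffer cell and monocyte markers, Ccr2 was higher and Clec4f, Timd4, Vsig4 and Cd5l were lower (153 to 333 against 219 to 398 FPKM). Of the 10 hepatocyte markers only Hnf4a passed, at -0.48, and the sums overlapped, at 27200, 28800, 37000 and 39200 FPKM in METTL3-HKD livers 1 to 4 against 35200 to 41700 FPKM in METTL3-Flox livers. Endothelial markers had 2 of 10 lower (94.1 to 108 against 101 to 113 FPKM), stellate markers 2 higher and 1 lower of 10 (60.0 to 92.0 against 53.8 to 105 FPKM), and 0 of 6 tested T and B cell markers passed at either p (0.880 to 3.53 against 1.14 to 2.40 FPKM). No marker was at 0 in all livers. The part of these cells in the values of the splicing genes was not tested.

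The annotation of these genes bears on what a gene-level value holds. In GENCODE M21, 9 of 11 SR genes, or 81.8%, list a transcript subject to nonsense-mediated decay, against 46.9% of the 81 members and 27.2% of tested protein-coding genes. A retained-intron transcript is listed for 72.8% of members and 56.5% of those genes. The FPKM sum all forms of a gene, so a change in the share of productive and decayed transcripts is not seen in them. For 31 members the gene length used for FPKM is over 2 times that of the first-numbered coding transcript, 7899 against 2618 bases in Srsf3. A longer length lowers the level listed but not the ratio of FPKM between the groups. With 0.1 FPKM added before the log2, the fitted fold change of low genes is understated. Of the 81 members, 31 share over 10% of the 50-base words of that transcript with other genes and 29 overlap exons of another gene. Among the called genes Srsf3 shares 31.5%, most of it with Gm12355, which was at a mean of 0.109 FPKM.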

How the data were processed

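Libraries of 8 mouse livers, 4 per group by the labels, were made with the SMARTER mRNA-Seq kit. The authors deposited FPKM for 54532 genes, already scaled between libraries, with a gene length for each. Their processing notes name GRCm38 and mm10, while the aligner, annotation and strand setting are not given in the sources used here. FPKM times gene length gave whole reads for 100% of non-zero values (tolerance 0.01), from which depth and the scaling to reads on genes were taken. Counting error is larger for members with few reads.

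Genes averaging 0.1 FPKM or more were compared on log2(FPKM + 0.1) with limma 3.58.1 (R 4.3.3, eBayes with a trend), with Benjamini-Hochberg adjustment over all 16645 genes. Fold changes on this scale understate those of low genes. Higher and lower mean an adjusted p under 0.05, and the second threshold was a log2 fold change of 1. The exact permutation tests enumerated all 70 arrangements of the livers in Python 3.11.15. On simulated data for 16613 genes with 200 changed, 192 changed and 8 unchanged genes were called. These counts were not split by size of change, and detection of changes as small as those of the members was not tested.

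Members and lists were chosen with earlier results of these data known, so no p was computed over a list. Named were Mettl3, the member of each class with the highest mean, up to 10 called members per direction with the smallest adjusted p, the 3 largest changes each way, members linked to m6A, untested members, and up to 3 called genes per list and direction. Hnrnpf, Dhx15, Pspc1 and the other members given by value were added after their values were seen. The 17 alternatives changed the pseudocount (1 FPKM), the minimum (1 FPKM or none), the scaling (reads on genes, or median of ratios, whose factor was 1.01 in all livers), the trend, the test (voom on the rebuilt reads), a replicate block, the genes tested (protein-coding only), or left out each liver in turn. Coordinates follow the deposited table; promoter windows are RefSeq GRCm38.p6 and transcript classes GENCODE M21, where 76 of 81 members have the same coordinates. Overlaps with other genes were examined for the members only. The values of 1 member are not reported here.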

Additional observations from a re-analysis of the deposited data

Results flagged for a closer look

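In 6 of 64 groups of 4 livers checked, 1 liver stood far from the others, by a gap test that chance passes in about 1 of 20 groups. Snrpd1 was at 13.2 FPKM in METTL3-Flox liver 1, against 8.87 to 9.12 FPKM in the other controls, and remained below all METTL3-HKD livers. Srsf7 was at 19.6 FPKM and Sf3b1 at 13.8 FPKM in METTL3-HKD liver 1. That liver also had the highest neutrophil and cholangiocyte marker sums and the lowest hepatocyte marker sum. Hnrnpf was at 37.8 FPKM in METTL3-HKD liver 4, against 36.3 to 36.6 FPKM in livers so close together that a small gap stands out. Srsf12 was at 0.0395 FPKM in METTL3-Flox liver 4 and U2af1l4 at 0.06 FPKM in METTL3-HKD liver 1, and these values rest on 2 reads at most.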

How the results depend on the processing

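The count of 11 higher members was 22 with libraries scaled to reads on genes (27.8%, against 13.8% of all genes). It was 7 with no mean-variance trend (8.86% against 7.49%) and 6 with the replicate block (7.59% against 5.83%). With no minimum it was 8 (9.88% against 4.67%). It was 15 with a minimum of 1 FPKM (19.2% against 11.7%) and with protein-coding genes only (19.0% against 12.5%). On omission of each liver it ranged from 4 to 13. The count of 1 lower member was 0 with reads on genes and 0 with the replicate block. The 5 higher SR proteins ranged from 2 to 6 on omission of a liver. The median over members was 0.38 with reads on genes. Among the genes named by the rule, signs turned in 4. Sf3b2 was -0.00 without METTL3-Flox replicate 1 and -0.02 without replicate 2, and Prpf8 was -0.01 and -0.00 without METTL3-HKD replicates 2 and 3 and -0.11 without METTL3-Flox replicate 1, in a range up to 0.07. Lsm4 was 0.21 with reads on genes, 0.00 with voom, and on omission of a liver -0.1 to 0.1, above 0 without METTL3-HKD replicates 1 to 3 or METTL3-Flox replicates 1 or 4. Mettl3 was 0.05 with reads on genes. Equal replicate numbers did not pair the livers: their deviations correlated at 0.071, -0.084, -0.013 and -0.034. Under the block, 971 genes were higher and 645 lower over all genes, against 1506 and 1104. Lsm14a and Lsm10 lost their calls under the block, with adjusted p values of 0.0518 and 0.0541. Calls of Snrpd1, Srsf3 and Srsf1 held under all 17 alternatives. Where a call was lost, the cause was not tested. Counting error is largest for members with few reads, such as Lsm5 (5 to 76) and Lsm3 (36 to 96).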

Other observations

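The spread within a group differed among the members. The median coefficient of variation of FPKM within a group was 10.2% in METTL3-HKD and 11.7% in METTL3-Flox livers. Among the steadiest members was Hnrnpk (34.7 ± 0.563 and 33.7 ± 0.676 FPKM in METTL3-HKD and METTL3-Flox livers, SD, n = 4), while Srsf5 was at 18.2 ± 4.06 and 18 ± 4.53 FPKM (SD, n = 4). METTL3-Flox liver 3 had the highest Srsf5 value, 24.3 FPKM.

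The letters GGACT, a common context of m6A, were counted in the first-numbered coding transcript of each gene. Their median density was 0.679 per kb over the members and 0.527 per kb in SR genes, against 1.07 per kb in tested protein-coding genes. Among the 11 members that were higher in METTL3-HKD livers it ranged from 0 (Snrpd1 and Hnrnpab) to 1.4 per kb (Hnrnpf). Lsm10, which was lower, held 2.12 per kb in a short transcript of 943 bases. Members that were not called ranged from 0 (Lsm4 among them) to 2.84 per kb (Prpf18). No m6A was measured in these files, and the relation was not tested.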
